A study of Mus musculus with 30 samples.

Results

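The clustered protocadherins are 58 of the 49997 mm10 RefSeq genes, chosen as all genes whose symbols start with Pcdha (14 genes, the alpha cluster), Pcdhb (22, beta) or Pcdhg (22, gamma). They lie side by side on chromosome 18, and the CTCF and RAD21 peaks of all 30 libraries were read from 20 kb before the first gene to 200 kb beyond the last, a window of 1131.59 kb from 36910285 to 38041873. Positions are on mm10, counted from 1. The window held 57 of the 47658 CTCF sites and 21 of the 20061 RAD21 sites present in all wild-type (WT) libraries. Such a site is called a WT site here: WT peak summits within 150 bp of each other were linked, and a peak of every WT library had to cover their median position. All members but Pcdhgb8, annotated as a transcribed pseudogene, are protein-coding.

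Clustered protocadherins are cell-surface adhesion proteins that, chosen at random in single neurons, give each cell an identity by which its branches avoid each other. Each alpha and gamma gene is a variable first exon with its own promoter, spliced to constant exons shared by its cluster, while beta genes have a single exon. CTCF binds a conserved element in most of these promoters, and cohesin, the ring complex that includes RAD21, is known to bring promoters to distal enhancers that lie beyond the alpha constant exons and beyond the end of gamma. The last genes of alpha and gamma (Pcdhac1, Pcdhac2, Pcdhgc3, Pcdhgc4 and Pcdhgc5, the C-type genes) are known to be expressed without random choice, and Pcdhac2, Pcdhb1, Pcdhgc4 and Pcdhgc5 are known to lack the conserved promoter element.

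CTCF and RAD21 were mapped by ChIPmentation, in which Tn5 transposase inserts the sequencing adapters into chromatin held on antibody beads, in trunks of E10.5 mouse embryos of the B6CBAF1 strain. The mutant embryos were homozygous for 1 of 6 alleles of the Hoxd cluster, on another chromosome, each named for the CTCF binding sites (CBS) it affects, and the WT embryos were control littermates from the same kind of cross. The CTCF libraries numbered 3 for Del(CBS1), 1 each for Del(CBS2) and Del(CBS1-2), 2 for Del(CBS1-3), 2 for Del(CBS1-4), 2 for Del(CBS1-5) and 3 for WT. The RAD21 libraries numbered 3 for Del(CBS1), 1 for Del(CBS2), 2 for Del(CBS1-2), 2 for Del(CBS1-3), 2 for Del(CBS1-4), 2 for Del(CBS1-5) and 4 for WT. Embryos were dissociated one at a time, so libraries were treated as separate samples. The labels name no change in the protocadherin clusters, so the comparison of mutant with WT libraries here was one of sites away from the mutated locus.

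The authors' peak lists held 40011 to 88323 CTCF peaks and 16676 to 48102 RAD21 peaks. They hold no read counts, so the depth is unknown and no counting interval can be given. Where a list has no peak, the site was not detected, which does not mean that it was unbound. Lengths differed within every replicated group. The shortest lists were those of Del(CBS1-3) replicate 2 and Del(CBS1) replicate 2 for CTCF (40011 and 40667 peaks) and of Del(CBS1-5) replicate 2 and Del(CBS1) replicate 1 for RAD21 (16676 and 18029), and among WT libraries RAD21 replicate 1 was the shortest (22449). Values are the authors' fold enrichment of each peak over its local background, used with its percentile, the percent of the sites that no library of the antibody lacked (30976 for CTCF, 12932 for RAD21) that had a lower fold in the same library. The trunk is a mixture of cell types, and in bulk chromatin fewer cells with a bound site and weaker binding per cell cannot be told apart.

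CTCF peaks stood at most alpha and gamma gene starts and at fewer beta starts. A WT CTCF site lay within 1000 bp of the RefSeq start of 11 of 14 alpha genes (78.6%), 18 of 22 gamma genes (81.8%) and 7 of 22 beta genes (31.8%). Over all clusters that is 36 of 58 genes (62.1%), against 18.2% of the 17492 protein-coding genes with a listed promoter. RAD21 WT sites stood at 9 gamma genes (40.9%), at 2 alpha genes (14.3%) and at 0 beta genes, together 11 of 58 (19.0%), against 6.41% of those protein-coding genes. All 11 genes with a RAD21 site also had a CTCF site. Among 9 non-clustered protocadherins of the 12 listed whose promoters could be matched (Pcdh7, Pcdh8, Pcdh9, Pcdh10, Pcdh15, Pcdh17, Pcdh18, Pcdh19 and Pcdh20), which are adhesion proteins encoded singly elsewhere in the genome, 0 had a CTCF site there and 1, Pcdh18, had a RAD21 site. Pcdh1, Pcdh11x and Pcdh12 were not matched. The listed promoters held none of chromosome 18, so the background lacks it. Starts in the clusters came from gene spans instead, so the 2 measures are not quite alike.

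**Figure D1:**
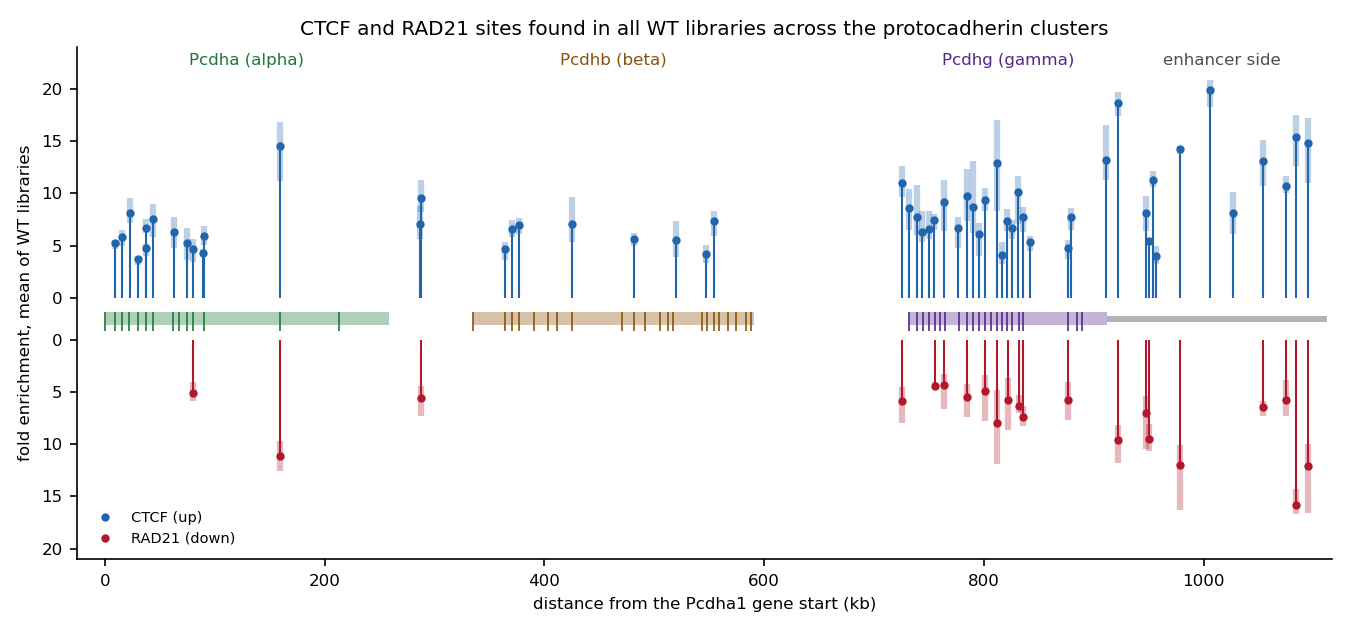
WT sites across the 3 clusters and the enhancer side. Each stem is a site at its distance from the Pcdha1 start in kb, CTCF upward and RAD21 downward; its height is the mean fold enrichment of the WT libraries (3 for CTCF, 4 for RAD21), the pale bar runs from the lowest to the highest WT library, and ticks on the coloured bars are gene starts. Alpha holds 13 CTCF sites, beta 8, gamma 21 and the enhancer side 12, while RAD21 sites number 2, 0, 9 and 8.

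Most promoter sites lay just before the start. In gamma 17 sites stood 8 to 183 bp before a start (median 91 bp), in beta 7 stood 26 to 192 bp before one (median 58 bp), and in alpha 8 stood 8 to 278 bp before one (median 125 bp). A further 5 alpha sites lay 453 to 577 bp after a start, at Pcdha4, Pcdha6, Pcdha7, Pcdha8 and Pcdha12, within the gene span; in gamma only Pcdhga12 had its site after the start, by 342 bp, and in beta none of the promoter sites did. Pcdha6 and Pcdha12 carried both kinds. The sites after alpha starts had a median WT percentile of 14.1, against 4.60 for those before alpha starts, and Pcdha4, Pcdha7 and Pcdha8 had a WT site after the start without one before it. Exons were not annotated in the tables used here, and neighbouring genes of a cluster share near-identical sequence that can make reads ambiguous; the part of either in these values was not tested.

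Peaks stood at the starts of 2 of the 5 C-type genes in all WT libraries, Pcdhac1 and Pcdhgc3. Pcdhac1 had the strongest promoter site of alpha, 229 bp before its start (37089907). Its CTCF fold ran from 7.27 to 18.2 in the 11 mutant libraries (median 11.3), against 16.8, 11.1 and 15.7 in the 3 WT libraries. The groups overlapped, with 6 mutant libraries inside or above the WT range of folds and Del(CBS2) the highest of all. In percentiles Del(CBS1-5) replicate 1 was the highest, at 94.5. Del(CBS2) had 86.6, against 86.5, 71.2 and 89.1 in the WT libraries. RAD21 at this start (37089959) ran from 6.88 to 15.6 in the 12 mutant libraries (median 9.34), against 12.6, 10.0, 9.71 and 12.3 in the 4 WT libraries, and it was found in 16 of 16 libraries. Its percentiles ran from 32.2 to 82.5 in the mutant libraries (median 51.1), against 86.1, 60.3, 61.4 and 58.9 in the WT libraries. Pcdhac1 was the only alpha gene with a RAD21 peak in every library.

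Pcdhgc3, a gamma C-type gene, had a CTCF site 146 bp before its start (37806264) in 8 of 11 mutant and 3 of 3 WT libraries. Its CTCF fold was low, from 3.04 to 11.1 in the mutant libraries with a peak (median 5.06), against 3.70, 4.97 and 5.53 in the WT libraries. A RAD21 peak stood there in 11 of 12 mutant libraries, with folds of 4.79 to 13.0 (median 5.93), and in the WT libraries with folds of 4.03, 5.22, 6.31 and 7.66. Del(CBS2) had the highest fold for both antibodies, and the WT folds lay within the mutant range, except the lowest RAD21 fold, which lay below it. In RAD21 percentiles Del(CBS1-5) replicate 2 was the highest, at 69.0, and Del(CBS2) had 61.2.

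At the other C-type starts and at Pcdhb1 nearly nothing was called. Pcdhac2 had a CTCF peak within 1000 bp in 1 of 11 mutant libraries and in 0 of 3 WT libraries, and no RAD21 peak in any library. Pcdhgc4 had no CTCF peak in any library and a RAD21 peak in 1 of 12 mutant libraries, and Pcdhgc5 and Pcdhb1, the first beta gene, had none of either antibody. Genes outside this group were also without CTCF peaks in all 14 libraries, namely Pcdhb9, Pcdhb12 and Pcdhgb2, named after their values were seen.

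Detection of the promoters differed by cluster in nearly every library. The share of genes with a CTCF peak within 1000 bp of the start was higher for gamma than for beta in 14 of 14 libraries, and higher for alpha than for beta in 14 of 14, whereas gamma exceeded alpha in 6 of 14. Across the libraries the alpha share ran from 35.7% to 100% (median 85.7%), the beta share from 9.09% to 72.7% (median 45.5%) and the gamma share from 45.5% to 86.4% (median 81.8%). Every CTCF list was also cut to its top 40011 peaks. Then 4 to 7 of 14 alpha and 10 to 17 of 22 gamma genes had one in mutant libraries. In WT libraries 6 to 9 alpha and 15 to 16 gamma genes did. The gamma share was then higher than the alpha share in every CTCF library. For RAD21 gamma exceeded both alpha and beta in 16 of 16 libraries and alpha exceeded beta in 15 of 16, with medians of 35.7% for alpha, 22.7% for beta and 68.2% for gamma. The exception was WT replicate 3, where 8 of 22 beta genes and 5 of 14 alpha genes had a RAD21 peak.

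**Figure D2:**
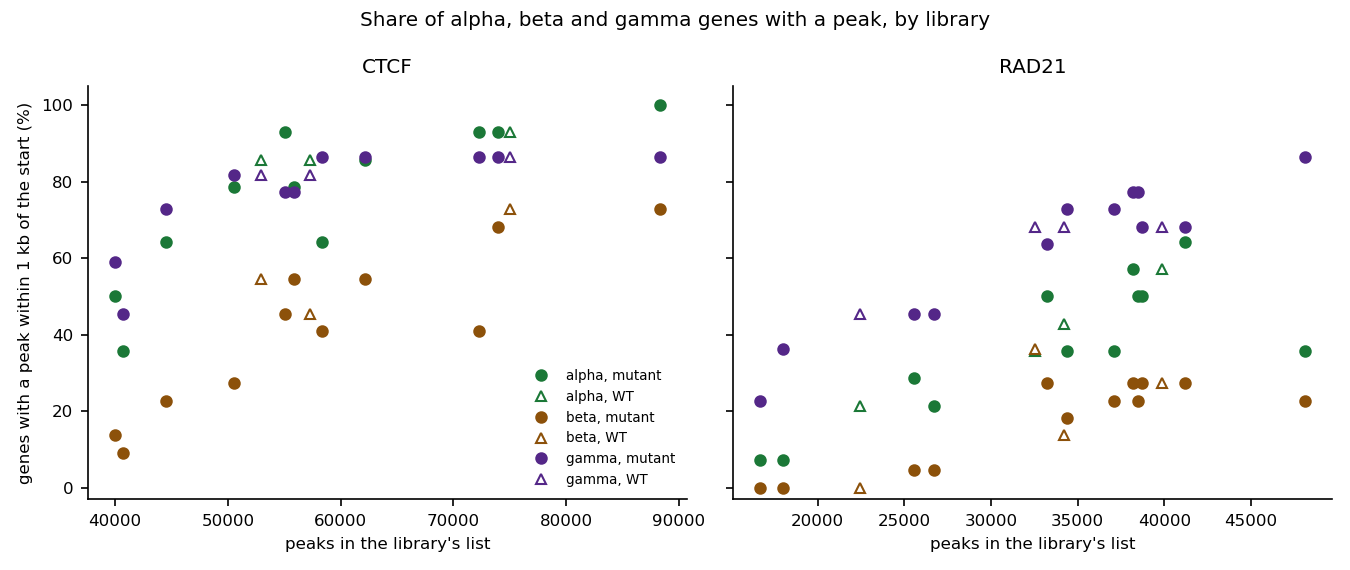
Percent of alpha, beta and gamma genes with a peak within 1 kb of the start in each library, against the number of peaks in its list. Filled circles are mutant libraries and open triangles WT libraries; the shortest lists have the smallest shares, and in the CTCF panel every beta point lies below the alpha and gamma points of the same library.

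These shares moved with list length. CTCF peaks stood at 17 of the 58 genes in Del(CBS1) replicate 2 and at 23 in Del(CBS1-3) replicate 2, the shortest lists, and at 49 in Del(CBS2), the longest. RAD21 peaks stood at 6 genes in Del(CBS1-5) replicate 2 and at 9 in Del(CBS1) replicate 1, against 13, 29, 28 and 24 in the WT libraries. Each RAD21 list was also cut to its top 16676 peaks. Gamma genes with one then numbered 5 and 7 in these mutant libraries, against 5, 3, 4 and 4 in the WT libraries. A CTCF peak was present in every library at 15 genes (3 alpha, 2 beta, 10 gamma) and a RAD21 peak at 4, which were Pcdhac1 and the gamma genes Pcdhgb7, Pcdhgb8 and Pcdhga12. No library had a RAD21 peak at 4 alpha, 9 beta and 2 gamma genes. RAD21 WT replicate 1 had no peak at any beta gene, and without it WT sites stood at 3 beta and 4 alpha genes in place of 0 and 2; the part of list length in these counts was not tested.

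**Figure D3:**
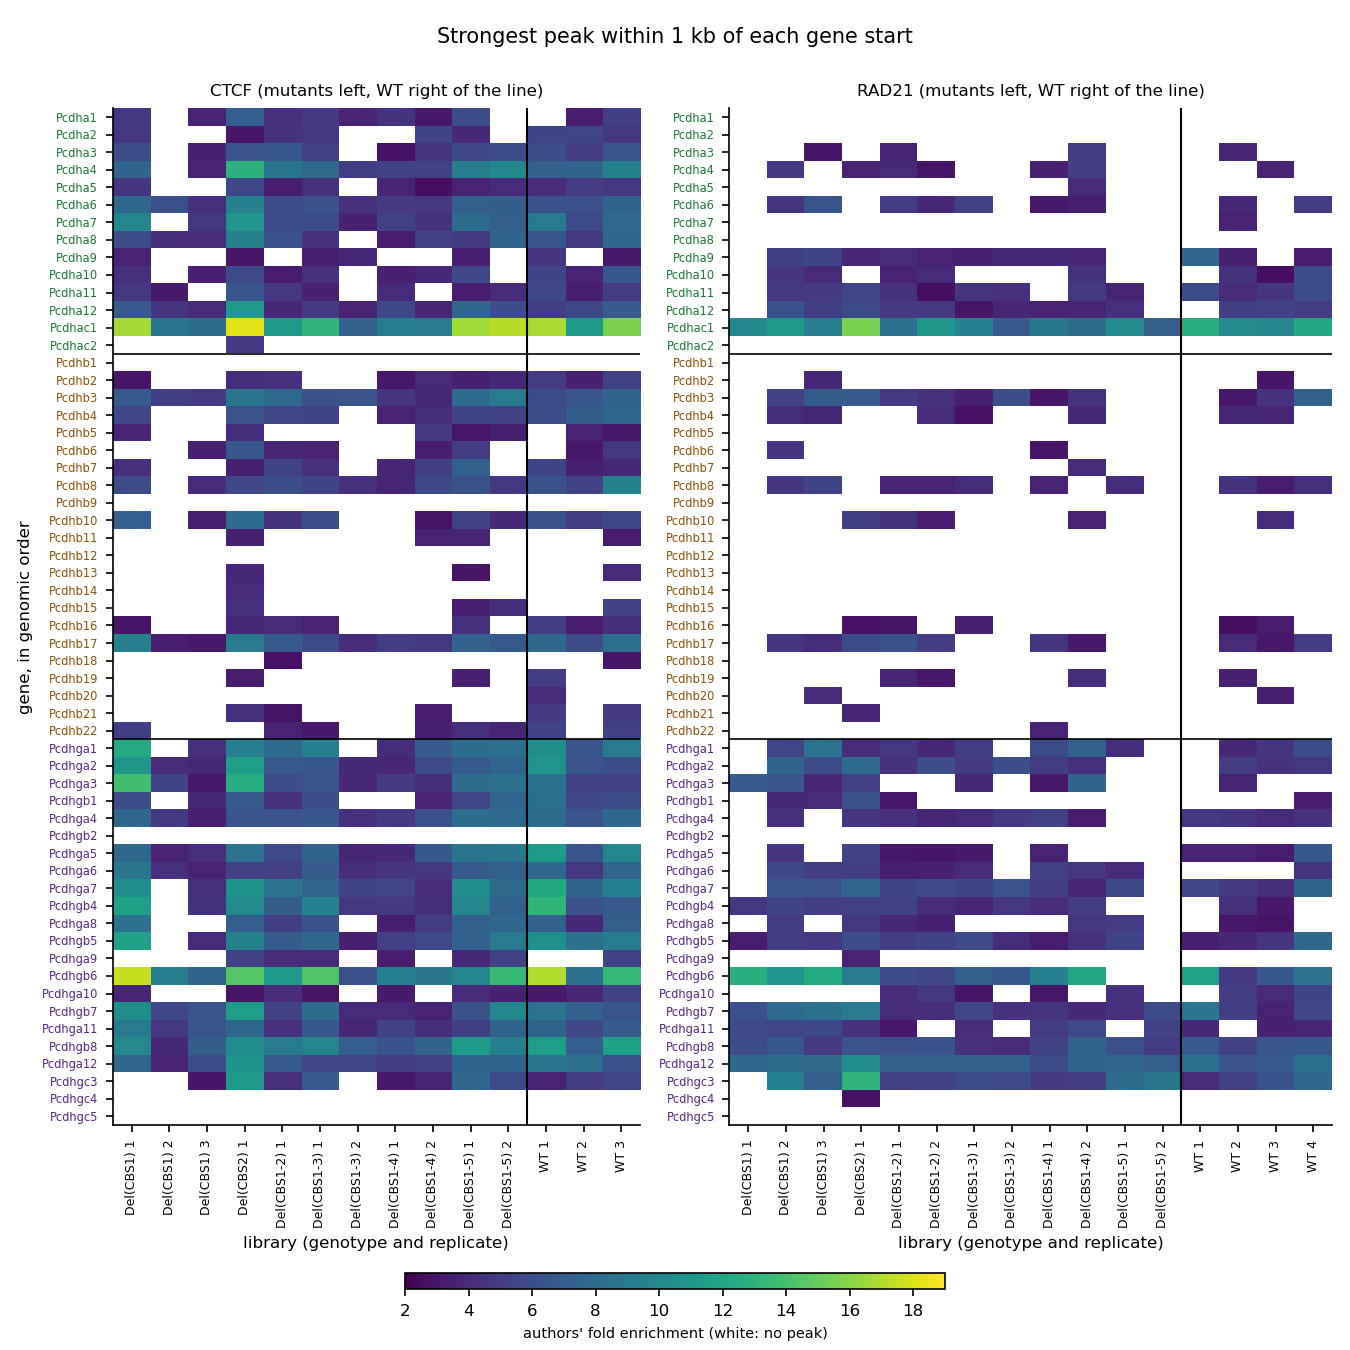
Strongest peak within 1 kb of each of the 58 gene starts, as the authors' fold enrichment (colour; white marks no peak), with genes in genomic order down the page, alpha, beta and gamma set apart by lines. Columns are libraries, mutants left of the vertical line and WT right of it. Pcdhac1 and Pcdhgb6 stand out in the CTCF panel, and the beta rows are mostly empty in the RAD21 panel.

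The variable promoters of gamma ranged widely. Pcdhgb6, whose site lies 138 bp before the start (37741956), was the strongest of them for CTCF, with folds of 6.14 to 17.5 in the mutant libraries (median 9.87), against 17.0, 8.26 and 13.3 in the WT libraries. Its RAD21 peak (37741949) was found in 10 of 12 mutant libraries with folds of 5.63 to 12.7 (median 9.20), against 11.9, 4.79, 6.68 and 8.48 in the WT libraries. The groups overlapped for both antibodies, and the spread within WT was wide: the RAD21 percentile of this site averaged 30.8 ± 34.5 (SD, n = 4). Both Del(CBS1-5) libraries lacked its RAD21 peak, and their lists were among the 4 shortest of the mutants.

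The next gamma promoter by CTCF was Pcdhgb8 (37761633), with a mean WT percentile of 42.5 ± 14.9 (SD, n = 3). Pcdhga7 (38.6 ± 10.1) and Pcdhgb5 (36.2 ± 4.52) differed from it by less than this spread. Pcdhgb8 had folds of 3.88 to 11.3 in the mutant libraries (median 9.02), against 11.5, 7.10 and 11.7 in the WT libraries. In folds WT replicates 1 and 3 lay just above all mutant libraries and WT replicate 2 within their range. In percentiles all WT libraries, at 27.4 to 57.2, lay within the mutant range of 7.80 to 61.9. The weakest gamma promoter site, at Pcdhga10 (37746960) and named after its values were seen, reached a mean WT percentile of 2.29 ± 2.3 and was found in 7 of 11 mutant libraries and in 3 of 3 WT libraries. For RAD21 the second gamma site was that of Pcdhga12 (37765942), which lies 362 bp after the start and was found in 16 of 16 libraries. Its folds ran from 5.87 to 10.3 in the mutant libraries (median 7.41), against 8.24, 6.35, 6.95 and 8.19 in the WT libraries, so WT lay within the mutant range.

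Among alpha genes other than Pcdhac1, the leading CTCF sites were those after the starts of Pcdha4 (36953202), with a mean WT percentile of 26.5 ± 12.6, and Pcdha7 (36974355), at 19.1 ± 4.9 (SD, n = 3 each). Pcdha4 had folds of 3.11 to 12.9 in the 10 mutant libraries with a peak (median 7.64), against 7.19, 7.49 and 9.59 in the WT libraries. Pcdha7 had folds of 4.51 to 10.8 in 9 mutant libraries (median 5.92), against 9.0, 5.84 and 7.81 in the WT libraries. In both cases the WT values lay within the mutant range. The other RAD21 WT site of alpha stood at Pcdha11 (37010616), found in 9 of 12 mutant libraries and in 4 of 4 WT libraries at a mean WT percentile of 5.15 ± 6.02.

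The beta cluster, whose single-exon genes each span a few kb, held 8 CTCF sites, 7 of them at promoters. The strongest were those of Pcdhb8 (37355079), Pcdhb17 (37484929) and Pcdhb4 (37307344), at mean WT percentiles of 17.9 ± 15.6, 17.7 ± 5.17 and 17.5 ± 9.75 (SD, n = 3 each), which differ by less than their spread. Pcdhb4 had folds of 4.21 to 6.32 in the 7 mutant libraries with a peak (median 5.45), against 6.12, 7.05 and 7.65 in the WT libraries. In folds only Del(CBS2), at 6.32, reached the WT range. Its percentiles ran from 4.39 to 9.98 in those mutant libraries (median 6.59), against 7.25 to 26.7 in the WT libraries, so the groups overlapped. Only Pcdhb3 (37300769) kept its CTCF peak over the site in every library. The 8th site lay 2333 bp after the start of Pcdhb14, inside that gene, and had no RAD21 peak in any library.

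Outside the promoters, the gaps between clusters held 3 CTCF sites. A pair 888 bp apart (37217549 and 37218437) stood 28.652 kb beyond the last alpha gene end and 46.561 kb before Pcdhb1. The pair lay inside the spans of the predicted genes Gm37013, Gm38666 and Gm38667, which also covered every WT site of beta and gamma. Both sites of the pair were found in all 14 CTCF libraries, and their mean WT percentiles were 19.1 ± 12.2 and 37.5 ± 5.3 (SD, n = 3 each). The second had CTCF folds of 4.31 to 13.4 in the mutant libraries (median 7.94), against 11.3, 8.17 and 9.16 in the WT libraries, with overlap of the groups. It also had RAD21 in 10 of 12 mutant and 4 of 4 WT libraries, while the first had RAD21 in 6 of 12 mutant and 2 of 4 WT libraries. An alpha enhancer is known to lie beyond the alpha constant exons; its position is in no table used here, so the pair was not matched to it.

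The gap before gamma held 1 CTCF site (37655597), 6178 bp before the start of Pcdhga1 and found in 14 of 14 libraries. Its folds ran from 4.23 to 14.5 in the mutant libraries (median 7.25), against 12.6, 9.62 and 10.7 in the WT libraries, so that the WT values lay in the upper part of the mutant range. RAD21 (37655637) was found in 11 of 12 mutant and 4 of 4 WT libraries at a mean WT percentile of 8.08 ± 5.74. No WT site lay in the 20 kb before Pcdha1.

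The strongest CTCF sites of the window lay on the enhancer side, the name used here for the 200 kb beyond the last gamma gene. Enhancer positions were not available, so no site of this stretch was matched to an enhancer. In gamma the site at 37841451, with a mean WT percentile of 71.2 ± 16.8, and that of Pcdhgb6, with 66.7 ± 24.2 (SD, n = 3 each), differed by less than their spread, and in mutant libraries their medians were 67.0 and 69.0. The site at 37841451, inside the gamma genes and close to their common end, had CTCF folds of 6.73 to 15.4 in the mutant libraries (median 10.3), against 16.5, 11.8 and 11.2 in the WT libraries, and was found in every CTCF library, with RAD21 in 7 of 12 mutant and 2 of 4 WT libraries. Beyond it, the 200 kb of the enhancer side held 12 CTCF sites, all 12 found in all 14 libraries, and their median WT percentile was 63.4. The medians were 21.1 for gamma, 10.8 for beta and 8.13 for alpha, and the sites found in every library numbered 10 of 21 in gamma, 1 of 8 in beta and 2 of 13 in alpha. Counted per length, gamma was the densest with 11.6 sites per 100 kb, against 6 on the enhancer side, 5.01 in alpha and 3.11 in beta.

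Of these 12 sites 6 lay within Diaph1, a formin that assembles actin filaments and the neighbour of the gamma cluster. The strongest, at 37935683, lay 61 bp outside the Diaph1 span, at an end that could be its start or its end, since no strand was given. Its CTCF folds ran from 11.2 to 25.1 in the mutant libraries (median 18.5), against 20.6, 18.2 and 20.9 in the WT libraries, and its mean WT percentile was 99.4 ± 0.4 (SD, n = 3). RAD21 there was weak: it was found in 11 of 12 mutant libraries and 3 of 4 WT libraries, at a mean WT percentile of 8.67 where found, and this comparison was chosen after its values were seen. Of the 87 CTCF sites of the genome that were at least as strong in WT, 86.2% had RAD21 in all WT libraries.

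The second site, at 37852314 inside Diaph1, had CTCF folds of 13.2 to 20.4 in the mutant libraries (median 17.5), against 19.7, 17.4 and 18.9 in the WT libraries, and RAD21 (37852320) in every library at a mean WT percentile of 48.9 ± 21.3. The third, at 38013898, lay 11105 bp from the nearest annotated gene, Gm30093, and had CTCF folds of 11.3 to 19.8 in the mutant libraries (median 15.3), against 17.5, 12.6 and 15.98 in the WT libraries. It carried the strongest RAD21 site of the window (38013902), with folds of 12.4 to 17.6 in the mutant libraries (median 14.6), against 16.5, 14.3, 15.8 and 16.6 in the WT libraries. In percentiles this RAD21 site reached 96.4 ± 3.2 in WT (SD, n = 4), ahead of the sites at 38025056 (75.1 ± 12.6) and 37908294 (75.0 ± 10.9), a pair that differ by less than their spread.

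A further site inside Diaph1, chosen after its values were seen, ranked far higher for RAD21 than for CTCF by fold enrichment. The CTCF percentile at 37880421 was 6.84 ± 2.45 in WT (SD, n = 3), with folds of 3.99 to 6.87 in the mutant libraries, against 5.5, 5.34 and 5.60 in the WT libraries. RAD21 at that site had a WT percentile of 49.8 ± 19.2 (SD, n = 4), with folds of 6.99 to 14.6 in the mutant libraries, against 8.11, 10.6, 9.89 and 9.24 in the WT libraries. The gap of 43.0 percentile points was matched or exceeded by 0.817% of the 19574 CTCF sites of the genome with RAD21 in all WT libraries. Both antibodies were found there in all of their libraries. The low CTCF rank is one of fold only. The peak caller's -log10 q for CTCF at 37880421 was at least 46.1 in every WT library. At 37655597, with a mean WT percentile of 51.5, the lowest WT value was 36.0.

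RAD21 was found more often at the stronger CTCF sites. Of the 57 CTCF sites of the window, 21 had a RAD21 peak in all 4 WT libraries (36.8%, against 41.1% of CTCF sites genome-wide) and 11 had one in no WT library. The 21 were 8 on the enhancer side, 9 in gamma, 2 in alpha, 1 in each gap and 0 in beta. Among sites under the 20th percentile for CTCF, 5 of 32 had RAD21, and among those above the 80th 5 of 6 did, where the genome-wide shares were 10.4% and 91.9%. In the bins between, the counts were 6 of 12 from 20 to 40 (35.1% genome-wide), 3 of 4 from 40 to 60 (58.4%) and 2 of 3 from 60 to 80 (80.9%). All 21 RAD21 WT sites had CTCF in all WT CTCF libraries, against 98.6% genome-wide. The sites after the starts of Pcdha6, Pcdha7 and Pcdha8 had no RAD21 peak over them in any of the 16 libraries.

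The window was rich in sites that were weak. Of the windows of this length over the genome, 2394 for CTCF and 2313 for RAD21, the median held 17 CTCF and 8 RAD21 sites, and 3.93% and 5.36% held at least as many as the 57 and 21 here. The median WT percentile of the window's sites was 18.9 for CTCF and 13.9 for RAD21, against 27.8 and 29.2 over all WT sites. Of the window's sites 49.1% of CTCF and 47.6% of RAD21 were found in every library, against 65.0% and 64.5% genome-wide. These are descriptions with no test.

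No site of the clusters or of the enhancer side passed the test of mutant against WT libraries. The test was limma on the ranks of fold enrichment within each library, turned into normal scores and fitted over all sites found in every library, with p-values adjusted by Benjamini-Hochberg over all of them at a threshold of 0.05. The 28 CTCF and 10 RAD21 sites of the window found in every library could be tested. For CTCF 0 of 28 were called in all mutants, in Del(CBS1) and in Del(CBS1-5) against WT, where 0%, 0% and 0% of 30976 sites were called over the genome. At an unadjusted p under 0.05 the window had 1, 1 and 1 site in these limma comparisons, and the genome 691, 1681 and 499. For RAD21 0 of 10 were called in the same comparisons, where 0%, 0% and 0.0464% of 12932 sites were called; the unadjusted limma counts were 1, 0 and 0 in the window and 461, 665 and 1236 over the genome. The 0.0464% are 6 sites, and they became 157 without Del(CBS1-5) replicate 1, with 0 in the window.

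The highest and the lowest CTCF difference of all mutants from WT were both on the enhancer side. The site at 38013898 was higher in mutants by 0.54 ± 0.21 normal-score units (SE), with percentiles of 90.4 to 98.4 in the mutant libraries (median 96.4), against 90.4, 83.6 and 90.6 in the WT libraries, yet its limma adjusted p was 0.9997. The groups touched, since only the lowest mutant library, Del(CBS2), lay within the WT range. The site at 38025042 had the lowest difference, -0.32 ± 0.23 (SE, limma adjusted p = 0.9997), with percentiles of 36.6 to 94.8 in the mutant libraries (median 76.9), against 89.1, 69.9 and 90.9 in the WT libraries. It was -0.58 without WT replicate 2 and -0.17 without WT replicate 3. The median difference of the 28 sites was 0.02 and 15 of 28 were positive, against a median of -0.0003 over all sites tested.

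The lowest and the highest RAD21 difference lay inside Diaph1. At 37877507 it was -0.75 ± 0.33 (SE, limma adjusted p = 0.9993), with percentiles of 0.708 to 40.8 in the mutant libraries (median 2.39), against 22.1, 7.23, 7.47 and 38.9 in the WT libraries. Del(CBS1) replicate 1 and both Del(CBS1-5) libraries lay within or above the WT range and the other 9 mutant libraries below it. At 37880433 it was 0.47 ± 0.24 (SE, limma adjusted p = 0.9993), with percentiles of 35.8 to 87.1 in the mutant libraries (median 68.0), against 41.7, 67.4, 63.6 and 26.7 in the WT libraries, and it was 0.27 without WT replicate 4. The median difference of the 10 sites was -0.08 with 5 of 10 positive, against -0.005 over all sites tested.

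**Figure D4:**
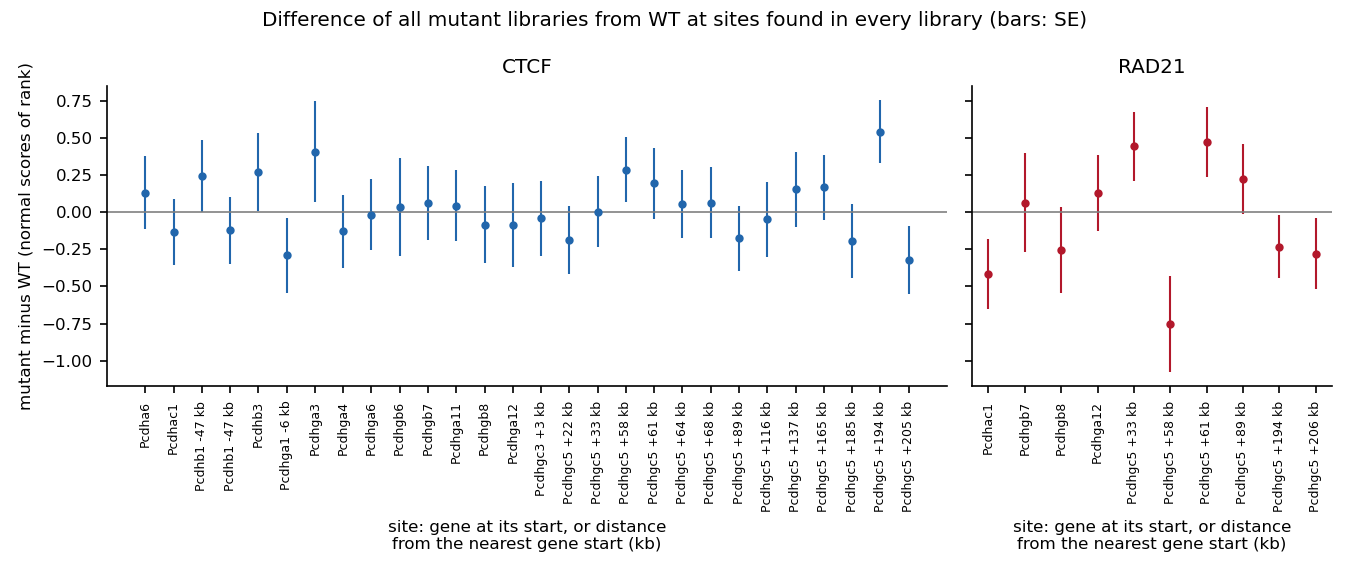
Difference of all mutant libraries from WT in normal scores of rank at the 28 CTCF and 10 RAD21 sites found in every library, in genomic order and named by the gene at whose start they lie or by their distance from the nearest gene start in kb. Points are limma estimates and bars their SE; the points lie on both sides of 0 and none passed the threshold.

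The comparisons of Del(CBS1) and Del(CBS1-5) with WT share the same WT libraries. For Del(CBS1) the CTCF differences ran from -0.47 ± 0.32 at Pcdhgb8 (37761633; limma adjusted p = 0.900) to 0.73 ± 0.27 at 38013898 (limma adjusted p = 0.884). The difference at Pcdhgb8 was -0.76 without Del(CBS1) replicate 3, -0.09 without Del(CBS1) replicate 2 and -0.28 without WT replicate 3. For Del(CBS1-5) they ran from -0.45 ± 0.32 at 37883664 to 0.66 ± 0.30 at 38013898 (limma adjusted p = 0.9999 for both), and the second was 0.37 without Del(CBS1-5) replicate 2. For RAD21 the highest in Del(CBS1) was 0.80 ± 0.44 at Pcdhgb7 (37751676; limma adjusted p = 0.932), with percentiles of 26.9, 16.5 and 24.8 in Del(CBS1) replicates 1 to 3, while WT replicates 1 to 4 had 48.4, 3.96, 0.677 and 2.52. This difference was 1.304 without WT replicate 1 and 0.49 without WT replicate 3. The lowest was -0.72 ± 0.43 at 37877507 (limma adjusted p = 0.932), and it was -1.46, -0.35 and -0.35 without Del(CBS1) replicate 1, 2 and 3. In Del(CBS1-5) the highest was 0.34 ± 0.38 at Pcdhga12 (37765942; limma adjusted p = 0.810), which was 0.71 without Del(CBS1-5) replicate 1, -0.026 without Del(CBS1-5) replicate 2, 0.53 without WT replicate 1 and 0.21 without WT replicate 2. The lowest, at Pcdhac1 (37089959), was -0.46 ± 0.35 (limma adjusted p = 0.696), with percentiles of 51.5 and 48.6, against 86.1, 60.3, 61.4 and 58.9 in the WT libraries. Both Del(CBS1-5) libraries lay below all 4 WT libraries, and the difference was -0.26 without WT replicate 1. This was not particular to Del(CBS1-5). Of all mutant libraries, only Del(CBS1) replicate 1 (72.8), Del(CBS1-2) replicate 2 (65.2) and Del(CBS2) (82.5) lay within the WT range at this site, and the rest lay below it.

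Within the window, WT CTCF sites that lacked a peak in some mutant library all lay in the 3 clusters. Sites were required in every WT library, so detection could only be lower in mutants: 87.1% of the pairs of a mutant library and a CTCF site of the window had a peak, against 90.1% genome-wide, and 88.9% against 94.1% for RAD21. By cluster the mutant detection of CTCF sites was 77.6% in alpha, 71.6% in beta and 89.6% in gamma, and it was 100% in the gaps and on the enhancer side. The sites also differed in strength, with median WT percentiles of 8.13 in alpha, 10.8 in beta, 21.1 in gamma and 63.4 on the enhancer side. With sites chosen without regard to genotype, as those found in at least 50% of all libraries, CTCF detection in the window was 84.3% in mutant and 94.8% in WT libraries, against 85.4% and 92.5% genome-wide. For RAD21 it was 78.5% in mutant and 82.5% in WT libraries, against 85.7% and 88.1%. The shortest CTCF lists, of Del(CBS1) replicate 2 and Del(CBS1-3) replicate 2, weigh on the mutant shares. They had peaks at 17 and 23 of the 58 genes, against a mutant median of 40 and 40 to 48 in WT libraries. The part of list length and of site strength in these detection shares was not tested.

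Sites found in all WT libraries and in under 50% of the mutant libraries numbered 3 for CTCF (5.26% of the window's sites, against 4.04% genome-wide) and 1 for RAD21 (4.76%, against 0.508%). The CTCF sites stood before the starts of Pcdha5 (36960201, 2 of 11 mutant libraries), Pcdhb2 (37294796, 5 of 11) and Pcdhb16 (37477742, 5 of 11). These counts are of peaks over the exact site: anywhere within 1000 bp of the start, a CTCF peak stood in 8 of 11 mutant libraries at Pcdha5, in 7 of 11 at Pcdhb2 and in 5 of 11 at Pcdhb16, and in 3 of 3 WT libraries at each. The Pcdha5 site had folds of 2.97 and 3.56 in both Del(CBS1-5) libraries, the only mutants with a peak over it, against 4.02, 3.15 and 3.96 in the WT libraries. The RAD21 site stood before Pcdhga5 (37694305) and was found in 3 of 12 mutant libraries, with folds of 2.94, 3.26 and 3.63, against 3.70, 3.70, 3.29 and 6.60 in the WT libraries. Within 1000 bp of the Pcdhga5 start a RAD21 peak stood in 6 of 12 mutant and 4 of 4 WT libraries. All 4 lay at low WT percentiles, 0.949 at Pcdha5, 3.11 at Pcdhb2, 1.93 at Pcdhb16 and 1.88 at Pcdhga5. No position of the window was in 0 WT libraries and in at least 50% of the mutant libraries, for either antibody.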

How the data were processed

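The submitters' processing notes name MACS2 2.1.1.20160309, bedtools 2.27.1, Bowtie2 2.3.5, cutadapt 1.16, Picard 2.19.0 and SAMtools 1.9 with the mm10 build; options are not given in the sources used here. The deposited files are 1 peak list per library. Of the values the authors deposited, the score is a display value that follows the q-value, the ratio is the fold enrichment of the summit, and each peak's -log10 p and -log10 q come from the peak caller. How multiply mapping reads were treated is not given in the sources used here.

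A library detected a site when a peak covered its median summit. Entries with the same start and end were read as a single interval, with the values of the entry whose summit lay nearest to the site. Gene spans came from the mm10 RefSeq table, which gave no strand or exons here, so gene starts were the lower ends of the spans; promoters of other genes came from RefSeq, matched by symbol, counting a gene once. No sequence is printed for this locus. The fit of ranks used R 4.3.3 and limma 3.58.1 (1 coefficient per genotype, empirical Bayes with trend and robust), tested on simulated data first; a genotype with a single library took its spread from the other genotypes. Other steps ran in Python 3.11.15 with pandas 2.3.3, numpy 2.4.6, matplotlib 3.10.9 and scipy 1.17.1.

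Named with values were, in each stretch of the window, the 3 CTCF and 2 RAD21 sites of highest mean WT percentile, the C-type genes and Pcdhb1, the largest and smallest limma differences, and sites in all WT and under 50% of mutant libraries. The members, lists and alternatives were chosen with earlier results of these data known.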

Additional observations from a re-analysis of the deposited data

Results flagged for a closer look

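Of 27 groups of 4 to 10 values examined, 5 had a WT RAD21 library standing apart from the other 3 by a 95% gap test. In separate groups chance alone would flag about 1 in 20. The RAD21 groups here reuse the same WT libraries, so the number of flags cannot be set against that rate. At Pcdhac1 (37089959) WT replicate 1 had a RAD21 percentile of 86.1, where the nearest other WT library had 61.4. At Pcdhgb7 (37751676) WT replicate 1 had 48.4 and the nearest 3.96, and at 37852320, inside Diaph1, WT replicate 1 had 80.6 and the nearest 40.8. At Pcdhga5 (37694305) the high library was WT replicate 4, with 6.22 against 0.688. The number of gamma genes with a RAD21 peak was 10 in WT replicate 1 and 15 in each of the other WT libraries. WT replicate 1 also has the shortest WT list. With every RAD21 list cut to its top 16676 peaks, the gamma counts were 5, 3, 4 and 4 in WT replicates 1 to 4. The part of list length in the percentiles was not tested.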

How the results depend on the processing

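The window's limma calls stayed at 0 in all 6 comparisons under every alternative run. Keeping peaks whose -log10 q reached 10 or more, the counts fell to 35 CTCF sites, 4 alpha and 1 beta genes with CTCF, 9 RAD21 sites, 1 alpha and 2 gamma genes with RAD21 and 9 CTCF sites with RAD21. With every list shortened to its top peaks, equal in number, they were 6 alpha and 4 beta genes with CTCF, 10 RAD21 sites, 1 alpha and 2 gamma genes with RAD21 and 10 CTCF sites with RAD21. With sites in at least 2 WT libraries they were 12 beta genes with CTCF, 40 RAD21 sites, 6 alpha, 4 beta and 15 gamma genes with RAD21, and 41 CTCF sites with RAD21. Gamma kept more CTCF genes than beta under each of these, with 13, 12 and 18 genes in that order. A summit within 100 bp, and promoters within 500 or 3000 bp, moved no count by over 1.5 times.

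Leaving out each WT library in turn gave 60 to 63 CTCF sites, 11 to 12 alpha, 8 to 10 beta and 18 to 18 gamma genes with CTCF, 22 to 31 RAD21 sites, 2 to 4 alpha, 0 to 3 beta and 9 to 12 gamma genes with RAD21, and 20 to 31 CTCF sites with RAD21; the highest RAD21 counts came without WT replicate 1. Over the genome, calls for all mutants, Del(CBS1) and Del(CBS1-5) ran over the omissions from 0 to 1, 0 to 13 (without Del(CBS1) replicate 1) and 0 to 1 for CTCF, and from 0 to 1, 0 to 1 and 0 to 157 (without Del(CBS1-5) replicate 1) for RAD21. With sites in at least 50% of the libraries, a missing peak taken as a fold of 0, they were 5, 9 and 38 for CTCF and 2, 4 and 15 for RAD21. Ranks of -log10 p gave 1 CTCF call for Del(CBS1) and 14 RAD21 calls for Del(CBS1-5), and leaving out the weakest 25% of sites gave 2. The RAD21 difference at 37765942 in Del(CBS1-5) was 0.34 and turned to -0.026 without Del(CBS1-5) replicate 2. The causes of these changes were not tested.

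Correlations of the deviations of same-numbered replicates ran from -0.25 to 0.27 over 21 CTCF pairs and from -0.19 to 0.28 over 31 RAD21 pairs. They exceeded 0.1 in 6 CTCF pairs and 1 RAD21 pair. For both antibodies the highest was that of Del(CBS1) replicate 1 with WT replicate 1. Genotypes with 2 libraries each give the same value for both numbers, so the pairs are not all separate. With replicate number as a block the RAD21 genome calls were 1 for all mutants and 0 for Del(CBS1-5), and the window's calls stayed at 0. Without counts the depth was unknown, so a missing peak at a weak promoter cannot be told apart from a shallow library.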
